A study of Mus musculus with 33 samples.

Results

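Genes that mark endothelial tip cells were followed by RNA sequencing in 11 cell groups of adult mouse bone marrow. The 7 genes were Esm1, Kcne3, Cd34, Igfbp3, Pdgfb, Unc5b and Ptn, chosen by name from the 38899 genes listed in all 4 deposited expression tables. Each group had 3 libraries, 33 in all. The deposited values are FPKM, read fragments scaled for transcript length and library size, so levels can be compared between genes per unit of length. The library size behind them was 0.849 to 1.477 times the reads recovered from the values, so it is not the plain read total.

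All mice were C57BL/6 and 8 to 12 weeks old. Of the 3 untreated wildtype groups, BMC holds unsorted marrow, Lin- holds marrow without the mature blood lineages, and LSK holds the Lin-Sca1+cKit+ fraction, which is enriched for blood stem and progenitor cells. Untreated Cdh5-mTnG mice, a reporter that turns endothelial cells green through the vascular cadherin gene Cdh5, gave GFP+ endothelial cells (EC) of femur and tibia (bone EC) and of the diaphysis, the shaft of the femur (diaphysis EC). Cdh5-mTnG mice that had received 9 Gy of irradiation gave the irradiated bone EC and, in another table, the 9Gy1D EC, sorted as Tomato+/GFP+. Both Vav1 groups carry the same genotype and treatment in their labels (Vav1-Cre R26-DTR Cdh5-mTnG, diphtheria toxin). Only their titles (ctrl and DTX) and column names (Cont and Cre) tell them apart. Whether the groups differ in toxin, in Cre or in both cannot be told from these. Vav1-Cre acts in blood cells, so the receptor for the toxin is placed in the blood lineage. Whether the sorted endothelial cells carried it as well was not tested. Tamoxifen-treated Apln-CreERT2 R26-mTmG mice gave the Apln+ EC, GFP+ cells of femur and tibia, and tamoxifen-treated Esm1-CreER R26-mTmG mice gave the Esm1+ EC. A tamoxifen-induced Cre label is permanent, so it marks cells that expressed the driver gene at the time of induction and their progeny. Tests were made only within a table, because the tables were normalized separately.

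Tip cells lead a growing vessel sprout toward VEGF, while the stalk cells behind them form the tube under Notch signalling. Tip cells secrete matrix-modifying and mural cell-recruiting factors and carry guidance receptors, and most marrow vessels are instead wide, thin-walled sinusoids with fewer arterioles. Among the secreted products, Esm1 encodes endocan, a proteoglycan induced by VEGF; Igfbp3 encodes a protein that binds insulin-like growth factors; Pdgfb encodes the platelet-derived growth factor chain that recruits pericytes; and Ptn encodes pleiotrophin, a heparin-binding growth factor. At the cell surface, Cd34 is a sialomucin that is also carried by blood stem and progenitor cells, Kcne3 is an accessory subunit of voltage-gated potassium channels, and Unc5b is a receptor for netrin-1.

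On GRCm38 (GENCODE vM21) all 7 genes are protein coding. Esm1 lies at chr13:113209659-113218098 on the plus strand, Kcne3 at chr7:100176502-100184869 (plus), Cd34 at chr1:194938819-194961279 (plus), Igfbp3 at chr11:7206086-7213923 (minus), Pdgfb at chr15:79995874-80014977 (minus), Unc5b at chr10:60762593-60831581 (minus) and Ptn at chr6:36714929-36810220 (minus). Kcne3 and Cd34 share exon bases with the antisense genes Gm34821 and Gm16897, and in the libraries made without strand information reads of these pairs cannot be told apart.

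The promoter sequences below, each from 250 bases before to 50 bases after the annotated start (RefSeq, GRCm38.p6, written 5′ to 3′ along the gene), are shown for the 4 genes that were higher together in Apln+ EC and for Esm1, which was not. Capitals mark AGGAAG or its reverse complement CTTCCT, a core that ETS factors, common regulators of endothelial genes, can bind.
Kcne3, upstream start, chr7:100176420-100176719 (plus): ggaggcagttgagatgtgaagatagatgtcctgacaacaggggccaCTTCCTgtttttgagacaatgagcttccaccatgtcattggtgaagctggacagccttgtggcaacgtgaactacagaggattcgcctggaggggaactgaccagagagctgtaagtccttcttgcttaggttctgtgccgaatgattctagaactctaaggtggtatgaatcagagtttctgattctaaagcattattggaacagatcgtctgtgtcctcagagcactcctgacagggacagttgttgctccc
Kcne3, downstream start, chr7:100178433-100178732 (plus): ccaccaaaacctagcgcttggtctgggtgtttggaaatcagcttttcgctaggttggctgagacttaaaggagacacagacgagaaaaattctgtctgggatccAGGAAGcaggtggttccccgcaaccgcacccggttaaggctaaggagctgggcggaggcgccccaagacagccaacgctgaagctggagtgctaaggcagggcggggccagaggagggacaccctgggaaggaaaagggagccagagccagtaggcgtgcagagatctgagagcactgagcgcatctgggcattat
Cd34, chr1:194938571-194938870 (plus): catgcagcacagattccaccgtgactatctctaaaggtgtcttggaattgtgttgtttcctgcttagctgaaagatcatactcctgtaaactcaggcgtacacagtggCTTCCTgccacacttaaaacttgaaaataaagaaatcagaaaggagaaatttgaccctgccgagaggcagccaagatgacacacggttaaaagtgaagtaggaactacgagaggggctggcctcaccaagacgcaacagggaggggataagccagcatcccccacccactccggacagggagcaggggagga
Igfbp3, chr11:7213874-7214173 (minus): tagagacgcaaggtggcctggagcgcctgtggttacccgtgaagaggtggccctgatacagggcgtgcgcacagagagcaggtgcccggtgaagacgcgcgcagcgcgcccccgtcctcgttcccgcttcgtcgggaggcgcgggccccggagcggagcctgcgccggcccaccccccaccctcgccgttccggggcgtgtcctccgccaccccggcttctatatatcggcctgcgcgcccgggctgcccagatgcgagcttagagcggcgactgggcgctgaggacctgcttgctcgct
Ptn, chr6:36810130-36810429 (minus): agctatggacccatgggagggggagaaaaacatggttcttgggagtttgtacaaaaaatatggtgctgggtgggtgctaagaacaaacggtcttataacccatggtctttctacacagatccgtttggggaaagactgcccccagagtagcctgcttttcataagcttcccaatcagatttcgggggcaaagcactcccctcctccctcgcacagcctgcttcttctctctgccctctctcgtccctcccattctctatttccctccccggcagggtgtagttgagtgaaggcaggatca
Esm1, chr13:113209409-113209708 (plus): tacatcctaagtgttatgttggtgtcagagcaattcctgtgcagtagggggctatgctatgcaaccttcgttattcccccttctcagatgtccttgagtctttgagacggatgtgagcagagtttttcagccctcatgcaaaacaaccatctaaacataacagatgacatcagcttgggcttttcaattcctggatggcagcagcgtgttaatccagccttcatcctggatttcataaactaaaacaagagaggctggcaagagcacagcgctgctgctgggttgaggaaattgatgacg

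The ETS core was found once in the Cd34 window and once in each Kcne3 window, and in none of the Igfbp3, Ptn and Esm1 windows; 35.4% of the 32851 promoter windows of the same length hold it. The forkhead motif TAAACA (or TGTTTA) occurred once in Esm1, against 13.4% of all windows. ACGTG, the core of the hypoxia response element (or CACGT), occurred once at the upstream Kcne3 start, against 19.6%. GGGCGG, the GC box (or CCGCCC), occurred 2 times at the downstream Kcne3 start, against 35.7%. GTGGGAA, the RBPJ motif of Notch signalling (or TTCCCAC), and the TATA box TATAAA (or TTTATA) were in none of the 6 windows shown, against 6.38% and 13.6% of all windows. No motif overlapped another in them. None of the motifs searched was in the windows of all 4 genes that were higher together. The Igfbp3 window was rich in G and C (71.7%), whereas the others lay at 46.3% to 57.7%.

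The recovered reads, 1.55 M to 12.29 M per library, set the precision. Reads were lowest in LSK and highest in Vav1 DTX EC. All 18 pan-endothelial marker genes reached 1 FPKM in at least 2 of 3 libraries in each of the 8 endothelial groups, and 3 of them (Cldn5, Ramp2 and Ushbp1) were at 0 in BMC. Transcripts of blood cells were plentiful in sorted EC as well, and 16 neutrophil genes together gave 48820 to 49080 FPKM in bone EC, 86490 to 115400 in BMC and 1052 to 4640 in irradiated bone EC. In such bulk samples, fewer cells of a type and less RNA per cell cannot be told apart. Some libraries stood apart from their group: Apln+ EC replicate 1, Vav1 DTX EC replicate 2 and Lin- replicate 3 differed from their partners by a chi-square per degree of freedom of 89.4 to 182, while the partners of the same group differed by 12.7 to 26.4. Esm1+ EC replicates 1 and 2 were the closest pair (1.39, against 3.13 or more for every other pair), just above counting noise, so both were counted and the test was repeated with their mean as 1 sample. Whether replicates came from separate mice is not given in the labels, so p-values here measure only the spread between these samples, which may be technical.

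**Figure D1:**
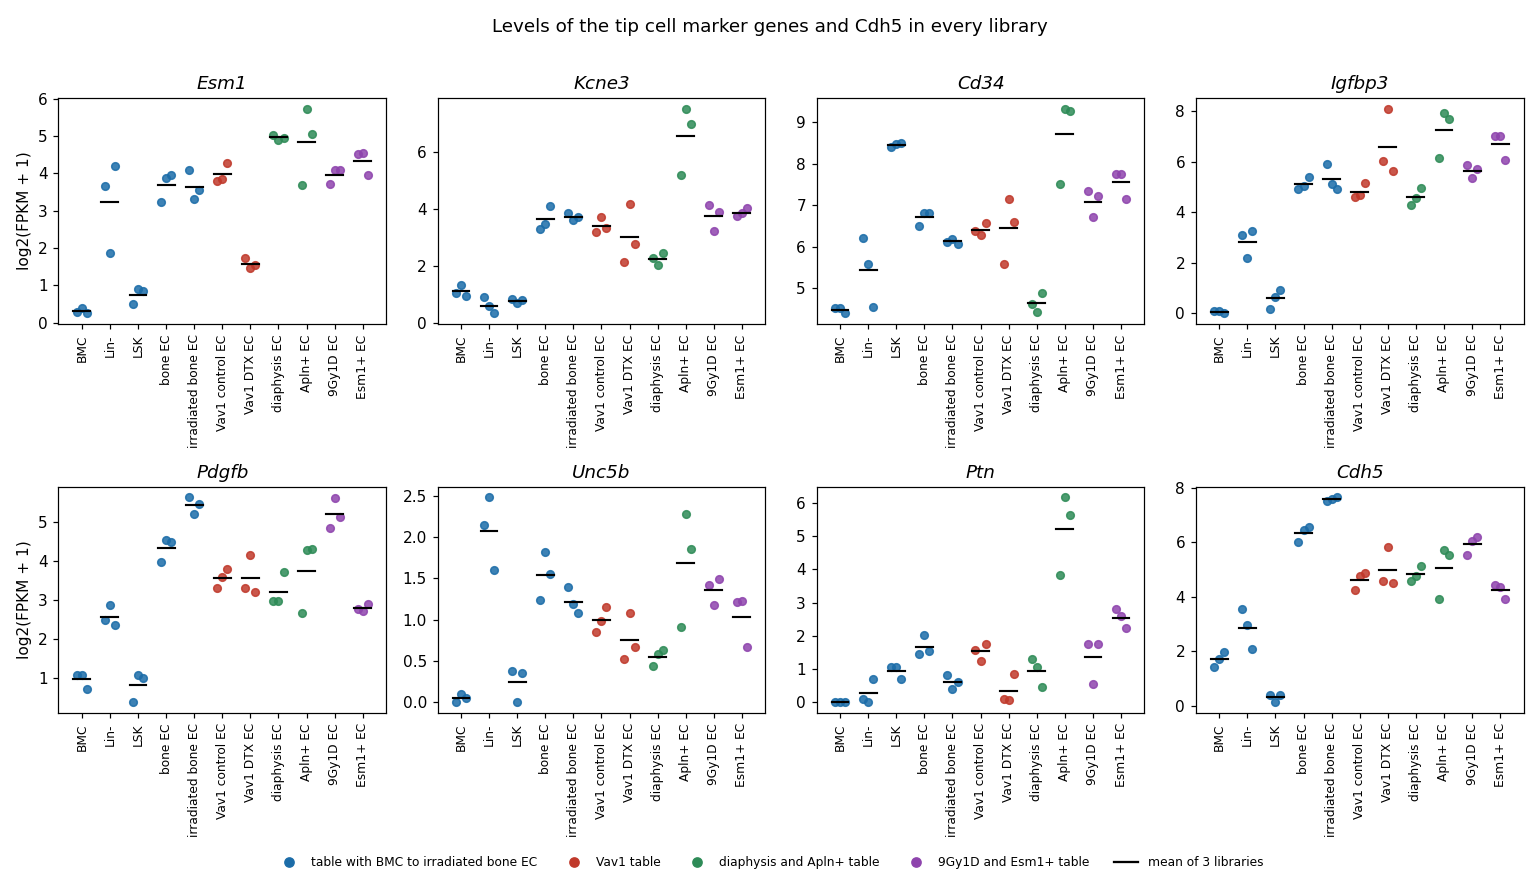
Each panel plots log2(FPKM + 1) of a gene in the 11 groups on the horizontal axis; points are libraries, bars are the mean of 3, and colours are the 4 tables. Kcne3, Cd34 and Ptn stand above diaphysis EC in all 3 Apln+ EC libraries (Kcne3 35.6 to 185 FPKM, against 3.11 to 4.44), whereas Esm1 is low in all 3 Vav1 DTX EC libraries (1.75 to 2.32 FPKM).

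The genes differed widely in level within endothelial cells. Cd34 had the highest mean of the 7 in 6 of the 8 endothelial groups, and Unc5b or Ptn the lowest in each. In bone EC, the untreated reference group, Cd34 measured 90, 112 and 110.3 FPKM, Igfbp3 measured 29.5, 32.3 and 40.7, and Pdgfb 14.6, 22.1 and 21.3. Esm1 (8.34, 13.6 and 14.5) and Kcne3 (8.91, 10.1 and 16.4) were lower and overlapped each other. Ptn, at 1.76, 3.07 and 1.91 FPKM, and Unc5b, at 1.36, 2.51 and 1.93, rested on 13 to 45 reads per library.

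Across all 11 groups, which span 4 tables and are therefore a description, the genes took different orders. Kcne3 was highest in Apln+ EC (mean 116 ± 75.3 FPKM, SD, n = 3), apart from the next group, Esm1+ EC (13.8 ± 1.57). From there each group overlapped the next, down to diaphysis EC (3.80 ± 0.664), the lowest endothelial group for Kcne3, and the blood groups BMC, LSK and Lin- were at 0.535 to 1.17 FPKM. Ptn had the same leading pair, Apln+ EC (44.4 ± 29.1) and Esm1+ EC (4.93 ± 1.176), with no overlap between them, and every other group had a mean of 2.25 or less. Pleiotrophin transcripts were thus close to the detection limit in most groups, and BMC listed Ptn at 0 in all 3 libraries with 0 reads.

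Cd34 and Igfbp3 also led in Apln+ EC. Cd34 was 479 ± 258 FPKM there and overlapped LSK (349 ± 9.81), in which the blood stem and progenitor list as a whole was at its highest (567 to 632 FPKM summed over its 15 genes, against 114 to 152 in Apln+ EC). The lowest Cd34 levels were in diaphysis EC (24.3 ± 4.06) and BMC (21.3 ± 1.17), which overlapped. Igfbp3 followed the order Apln+ EC (174 ± 91.9), Vav1 DTX EC (129 ± 126) and Esm1+ EC (107 ± 36.0), 3 groups that overlapped, then a gap to 9Gy1D EC (49.2 ± 8.51). Between 9Gy1D EC and diaphysis EC (23.7 ± 5.89) all neighbours overlapped for Igfbp3, and Lin-, LSK and BMC followed at 6.55, 0.546 and 0.0478 FPKM.

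The other 3 genes were ordered differently. Esm1 was highest in Apln+ EC (32.2 ± 20.2) and diaphysis EC (30.1 ± 1.28), which overlapped, and the Esm1+ EC came next at 19.6 ± 4.50. From Esm1+ EC down to Lin- (10.6 ± 7.43) each group overlapped the next, and Vav1 DTX EC (1.99 ± 0.293), LSK (0.688 ± 0.238) and BMC (0.239 ± 0.0665) stood apart below. Pdgfb was highest in the 2 irradiated groups, irradiated bone EC (42.6 ± 6.28) and 9Gy1D EC (36.5 ± 10.3), which overlapped each other and no other group. Unc5b was low throughout, and its highest mean was in Lin- (3.34 ± 1.28), where it overlapped Apln+ EC (2.45 ± 1.49).

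Apln+ EC were compared with diaphysis EC, which asks how cells marked through the apelin gene differ from the endothelium of the bone shaft. The groups also differ in reporter, in tamoxifen and in the bones taken, and these cannot be told apart. Of the 6 genes that passed the filter of at least 1 FPKM in 3 of 6 libraries, 4 were higher in Apln+ EC, against a background of 2.84% of the 11889 genes tested called higher (4.64% lower and 7.49% either way), by limma on log2(FPKM + 1) at a Benjamini-Hochberg adjusted p below 0.05. Kcne3 measured 35.6, 185 and 126 FPKM in Apln+ EC and 3.86, 3.11 and 4.44 in diaphysis EC. The groups did not overlap, as for 27.8% of all genes tested, and the lowest Apln+ value was that of replicate 1, the library that stood apart. The mean was 30.4-fold higher, with a log2 difference of 4.32 (SE 0.58, adjusted p = 0.00823).

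Cd34 was 182, 641 and 615 FPKM in Apln+ EC and 23.6, 20.6 and 28.6 in diaphysis EC, a 19.8-fold higher mean (log2 difference 4.06, SE 0.49, adjusted p = 0.00587). Ptn was 13.4, 71.0 and 48.9 FPKM against 1.49, 1.08 and 0.368, a 45.4-fold higher mean (4.28, SE 0.60, adjusted p = 0.0101), with 205 to 1420 reads against 8 to 29. With a diaphysis value of 0.368 FPKM, Ptn passed the filter only with the help of Apln+ EC. Igfbp3 was 69.5, 244 and 207 FPKM against 18.6, 22.4 and 30.1, 7.33-fold higher (2.66, SE 0.48, adjusted p = 0.0251). For each of these 3 genes, too, all Apln+ libraries lay above all diaphysis libraries.

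Esm1 and Pdgfb did not pass the test. Esm1 was 12.0, 52.3 and 32.5 FPKM in Apln+ EC and 31.4, 28.9 and 30.1 in diaphysis EC, with Apln+ values on both sides of the diaphysis range (log2 difference -0.13, 95% interval -1.30 to 1.04). Pdgfb was 5.33, 18.6 and 18.9 FPKM against 6.85, 6.85 and 12.1 (0.54, interval -0.63 to 1.71). Unc5b was below the filter, at 0.879, 3.83 and 2.63 FPKM against 0.354, 0.494 and 0.556, and was not tested; its values did not overlap. Apln itself, the gene behind the sort, was at 0.419, 0.930 and 1.24 FPKM in Apln+ EC and 0.855, 0.501 and 1.004 in diaphysis EC, below the filter too.

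Replicate 1 of Apln+ EC had the lowest value of the 3 in all 7 genes and in Cdh5, which read 14.2, 52.1 and 44.95 FPKM. Without it, 3989 of the 11889 genes tested were called, in place of 890. The log2 differences rose to 5.01 for Kcne3, 4.65 for Cd34, 4.96 for Ptn and 3.22 for Igfbp3, with adjusted p of at most 8.27e-05. Pdgfb then passed as well (1.08, adjusted p = 0.0127), and Esm1 changed sign but did not pass (0.44, adjusted p = 0.129). The loss of diaphysis EC replicate 2 or 3 left Cd34 as the 1 gene called, with Kcne3 and Ptn at adjusted p of 0.0504 to 0.0627 and the same direction. Igfbp3 missed the threshold in 5 of the 6 fits with a library left out (adjusted p 0.0763 to 0.116).

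The wider tip cell and sprouting list, 26 genes that exclude the 7, had 7 of 25 tested genes higher in Apln+ EC and 0 lower, with a median log2 difference of 0.65 against 0.04 over all genes tested. Ednrb, the endothelin B receptor, was 4.88 higher (102 against 2.04 FPKM, adjusted p = 0.00354), Ramp3, a co-receptor for adrenomedullin, 4.84 (239 against 5.93, adjusted p = 0.00544), and the basement membrane genes Nid2 and Col4a1 3.81 and 3.17 (adjusted p = 0.00403 and 0.0194). Of 13 stalk and quiescence genes tested, Aplnr, the apelin receptor, was the 1 gene higher (2.69, adjusted p = 0.0224), with a median of 0.18. In the list of ligands, receptors and partners of the 7 genes, 0 of 17 were higher and 2 were lower, the PDGF receptor Pdgfrb (-1.25) and the heparan sulfate proteoglycan Sdc1 (-1.04). Of 8 family members tested, 0 were higher and Unc5a, a relative of Unc5b, was lower (-2.04, adjusted p = 0.00236).

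Other vessel and blood markers were measured in the same contrast. In the sinusoidal list 6 of 9 genes were lower and 0 higher (median -2.19, summed level 104 to 194 FPKM in Apln+ EC and 575 to 817 in diaphysis EC), and in the arterial list 1 of 14 was higher. The pan-endothelial list had 0 of 18 called by limma in either direction (median 0.21), with 1 at an unadjusted p below 0.05 and 0 called by voom on recovered reads. Markers of blood stem and progenitor cells, which share Cd34, had 1 of 10 higher, 0 lower and a lower summed level (114 to 152 against 165 to 197 FPKM). The osteoblast and cartilage list had 4 of 8 higher and 1 lower (272 to 966 against 317 to 446 FPKM), the mesenchymal stromal list 2 of 12 higher and 4 lower (141 to 208 against 692 to 797) and the monocyte and macrophage list 1 of 11 higher and 7 lower (7094 to 21710 against 11660 to 14770). Their part in the result was not tested.

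The Vav1 DTX EC were set against the Vav1 control EC to ask how the endothelium differs in this model of blood cell depletion. Here 2 of the 6 genes tested fell and 0 rose, against 15% of 11664 genes called lower, 11.3% higher and 26.3% either way. Ptn, 1 of the 2, was below 1 FPKM in every DTX library. It passed the filter only through control, so only a fall could be called. Esm1 read 2.32, 1.75 and 1.91 FPKM in DTX and 13.0, 13.4 and 18.3 in control, with 38 to 63 against 229 to 388 reads. Every DTX library was below every control library, by 7.47-fold in the mean (log2 difference -2.40, SE 0.17, adjusted p = 1.98e-04). The call held under each of the 15 alternatives run for it (adjusted p 1.43e-04 to 0.00173).

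Ptn read 0.0763, 0.0478 and 0.821 FPKM in DTX and 1.99, 1.39 and 2.40 in control. Although its groups did not overlap, the DTX values rest on 1 to 17 reads (log2 difference -1.19, SE 0.25, adjusted p = 0.0149). The Ptn call was lost without Vav1 control EC replicate 1 or 3 or without DTX replicate 1 (adjusted p 0.0531 to 0.0574).

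Igfbp3, the third gene of the 6 whose groups did not overlap (46.3% of all genes), lay higher in all 3 DTX libraries, 64.7, 274 and 48.2 FPKM against 23.3, 24.7 and 34.8, but did not pass (1.77, SE 0.60, adjusted p = 0.0684). Without DTX replicate 2, which stood apart and held the value of 274, Igfbp3 passed with a smaller difference (1.01, adjusted p = 0.00674), and Kcne3 passed as lower (-0.97, adjusted p = 0.0165). Igfbp3 passed without DTX replicate 3 as well (2.26, adjusted p = 0.0411). In the full set Kcne3 was 3.37, 16.9 and 5.85 FPKM in DTX and 8.15, 12.3 and 9.03 in control (-0.40, interval -1.53 to 0.73). Cd34 (46.9, 141 and 96.1 FPKM against 82.7, 76.1 and 93.9) and Pdgfb (8.93, 16.8 and 8.16 against 8.93, 11.1 and 12.8) overlapped between the groups, with intervals of -0.82 to 0.89 and -0.65 to 0.63. Unc5b was at 0.435, 1.11 and 0.584 FPKM against 0.804, 0.982 and 1.22 and was not tested.

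Few other sprouting genes were called in this contrast: 1 of 25 genes of the wider tip list rose and 3 fell, with a median of 0.38 against 0.03 over all genes. The gene that rose was Angpt2, a Tie2 ligand released by activated endothelium (1.35, adjusted p = 0.0151). The chemokine receptor Cxcr4 (-2.16, adjusted p = 0.00168), Apln (-1.22, adjusted p = 0.00654) and Nid2 (-0.88, adjusted p = 0.0155) fell. Of 13 stalk genes, 0 were called by limma, with 3 at an unadjusted p below 0.05 and 0 called by voom on recovered reads. In the family list, Igfbp2 rose (2.08, adjusted p = 0.0133), while Igfbp5 (-2.08, adjusted p = 0.00199) and midkine, Mdk, the relative of pleiotrophin (-1.45, adjusted p = 0.00256), fell. In the partner list 8 of 16 genes fell and 1 rose, the falls including the blood-cell integrin Itgal (-1.49), Pdgfrb (-1.20) and Sdc1 (-1.17).

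Blood cell markers moved in the same direction as Esm1. In the erythroid list 12 of 13 genes fell (summed level 1811 to 3458 FPKM in DTX, 45270 to 85060 in control), in the B lymphoid list 10 of 10 (25.9 to 29.5 against 477 to 631), in the monocyte and macrophage list 7 of 11 (4006 to 4809 against 13190 to 15020) and in the neutrophil list 4 of 16, with 2 rising (37980 to 87250 against 88900 to 98370). The megakaryocyte and platelet list had 7 of 8 lower and 0 higher, and the stem and progenitor list 4 of 10 lower and 1 higher. The osteoblast and cartilage list (3 of 4 genes lower) and the mesenchymal stromal list (4 of 11 lower) also moved, and the part of these lists in the result was not tested. The pan-endothelial list had 0 of 18 genes called by limma (median 0.30; 3 at an unadjusted p below 0.05, 0 by voom), and Cdh5 was 18.2 to 28.5 FPKM in control and 21.8 to 56.0 in DTX.

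Irradiated bone EC were compared with untreated bone EC, in a contrast in which 41.9% of 13044 genes were called (22.5% higher and 19.4% lower) and 54.2% did not overlap. The 7 genes did not move together: Pdgfb rose, Cd34 and Ptn fell, and 4 did not pass. A count of 3 of 7 is close to that background. Pdgfb measured 48.6, 36.1 and 43.1 FPKM in irradiated and 14.6, 22.1 and 21.3 in untreated bone EC, without overlap (2.20-fold, log2 difference 1.11, SE 0.20, adjusted p = 0.0039), but with each library scaled to its mean pan-endothelial level the difference turned to -0.43, not called. Ptn measured 0.761, 0.307 and 0.514 FPKM, which are 2 to 6 reads, against 1.76, 3.07 and 1.91 (-1.08, SE 0.21, adjusted p = 0.00634). It passed the filter only through untreated bone EC, so only a fall could be called.

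Cd34 measured 68.7, 72.2 and 65.9 FPKM in irradiated and 90, 112 and 110.3 in untreated bone EC (-0.58, SE 0.14, adjusted p = 0.0134). This call was lost without bone EC replicate 2 or 3 or irradiated replicate 3 (adjusted p 0.052 to 0.063), and also in TPM (0.0759) and in the fit of all 15 libraries of the table (0.109). Esm1 was 15.9, 8.89 and 10.6 FPKM against 8.34, 13.6 and 14.5 (interval of the log2 difference -0.67 to 0.59), Kcne3 13.4, 11.4 and 12.1 against 8.91, 10.1 and 16.4 (-0.43 to 0.62) and Igfbp3 58.3, 34.2 and 28.9 against 29.5, 32.3 and 40.7 (-0.44 to 0.82). Unc5b, at 1.62, 1.27 and 1.11 FPKM against 1.36, 2.51 and 1.93, also overlapped (-0.78 to 0.15).

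Endothelial transcripts as a whole were higher in the irradiated libraries. Cdh5 read 180.2, 194 and 200.3 FPKM in irradiated and 64.1, 86.7 and 93.7 in untreated bone EC (log2 difference 1.24, adjusted p = 0.00145), and 16 of 18 pan-endothelial genes rose. Scaling to those genes shifts the median of all genes by -1.34. In the same libraries 16 of 16 neutrophil genes, 12 of 13 erythroid genes and 11 of 11 B lymphoid genes fell, with medians of -4.61, -4.9 and -2.82. So did 7 of 7 megakaryocyte and platelet genes, 5 of 11 monocyte and macrophage genes (2 rose) and 4 of 10 stem and progenitor genes (2 rose), and 8 of 8 sinusoidal genes rose. The part of these lists in the results was not tested. Pdgfb moved by about as much as Cdh5, and the other 6 genes by less or downward. The wider tip list had 16 of 25 genes higher and 3 lower (median 1.05 against 0.06 over all genes), led by Angpt2 (2.84), the VEGF receptor Flt4 (2.56) and adrenomedullin, Adm (2.28), with Cxcr4 lower (-2.97), each at an adjusted p of 9.73e-04 or less. The stalk list had 12 of 13 higher and 0 lower (median 1.07), with Jag1 (1.75), Notch4 (1.60), Id1 (1.54) and Nrarp (1.52) in front.

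The partners and relatives of the 7 genes split in this contrast. Flrt3, a ligand of Unc5 receptors (2.73, adjusted p = 2.28e-04), and Sdc3, a syndecan that binds pleiotrophin (1.51, adjusted p = 0.00356), rose, while Itgal (-1.66), characteristic of white blood cells, fell. In all, 4 of 17 partners rose and 6 fell, where 22.5% of all genes tested were called higher and 19.4% lower. Of 9 family members tested 5 rose and 1 fell, among them Igfbp2 (1.79), Igfbp4 (1.45) and Unc5a (1.60) as higher and Igfbp5 (-1.81) as lower.

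The 9Gy1D EC and the Esm1+ EC differ in both genotype and treatment, so irradiation, the reporter and tamoxifen cannot be told apart in this contrast, in which 43.7% of 11746 genes were called (20.6% higher and 23.1% lower in 9Gy1D EC) and 57.3% did not overlap. Esm1 was 12.1, 15.9 and 16.0 FPKM in 9Gy1D EC and 21.9, 22.5 and 14.4 in Esm1+ EC. The sets overlapped although Esm1 drives the Cre in the second group (-0.38, interval -0.86 to 0.10, adjusted p = 0.168). Pdgfb was 27.7, 47.8 and 34.1 FPKM in 9Gy1D EC and 5.88, 5.55 and 6.46 in Esm1+ EC, 6.12-fold higher (2.40, SE 0.20, adjusted p = 2.35e-04), and it was the gene of the 7 whose call held in all 16 alternatives run for it.

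Igfbp3 was 56.7, 40.0 and 50.9 FPKM in 9Gy1D EC against 127, 129 and 65.5 in Esm1+ EC (-1.06, SE 0.28, adjusted p = 0.019), and Ptn 2.38, 0.455 and 2.41 against 6.01, 5.11 and 3.68 (-1.19, SE 0.36, adjusted p = 0.0319). Neither call held once the near-identical Esm1+ EC replicates 1 and 2 were averaged (adjusted p = 0.0661 and 0.0915), which left Pdgfb as the 1 gene called. Igfbp3 also missed the threshold without 9Gy1D EC replicate 2 or 3, and both missed it without Esm1+ EC replicate 1 or 2. Ptn missed it as well with a pseudocount of 0.1 (adjusted p = 0.0568), without a filter (0.0656) and in TPM (0.0699), so its call held in 9 of 15 alternatives, and that of Igfbp3 in 11 of 16. With a 9Gy1D EC value of 0.455 FPKM, Ptn passed the filter only with the help of Esm1+ EC. Without Esm1+ EC replicate 3, Esm1 (-0.58, adjusted p = 0.03) and Cd34 (-0.67, adjusted p = 0.0431) passed as lower. That fit leaves only the near-identical replicates 1 and 2 in the Esm1+ EC group, so its spread is close to counting noise. With those replicates averaged and replicate 3 kept, Esm1 and Cd34 did not pass (adjusted p = 0.401 and 0.338). Cd34 (160, 104 and 148 FPKM against 215, 216 and 140), Kcne3 (16.6, 8.38 and 13.7 against 12.4, 13.4 and 15.5) and Unc5b (1.67, 1.26 and 1.80 against 1.32, 1.34 and 0.588) overlapped in the full set.

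The wider tip list had 13 of 26 genes higher and 5 lower in 9Gy1D EC (median 0.85 against 0 over all genes), led by Adm (4.48, adjusted p = 9.48e-05), Angpt2 (3.54, adjusted p = 1.96e-05), Flt4 (2.85) and the VEGF receptor Kdr (2.74). Of 13 stalk genes, 8 were higher and 0 lower, with Id1 (2.62), Smad6 (2.44), the angiopoietin receptor Tek (2.27) and Klf4 (2.23) in front. Flrt3 (3.12) and Sdc3 (1.85) were again higher. Unc5a was at 7.06 FPKM in 9Gy1D EC and listed at 0 in Esm1+ EC, so no fold is given. Pan-endothelial genes were higher in 16 of 18 cases (median 1.72; Cdh5 1.70), sinusoidal genes in 9 of 9 (median 3.1). Neutrophil genes were lower in 11 of 16, B lymphoid genes in 9 of 10, erythroid genes in 9 of 13, with 1 higher, and osteoblast and cartilage genes in 9 of 11 (117 to 297 FPKM in 9Gy1D EC, 1132 to 2276 in Esm1+ EC). Other lists had more genes higher than lower, the direction of Pdgfb: megakaryocyte and platelet genes were higher in 4 of 7 cases and lower in 0 (59.7 to 799 against 16.9 to 34.8 FPKM), mural genes in 4 of 5 and 0 (93.9 to 95.1 against 38.4 to 55.6), mesenchymal stromal genes in 6 of 12 and 2 (650 to 974 against 352 to 794), and monocyte and macrophage genes in 6 of 11 and 3 (5667 to 9064 against 10910 to 12700). The part of these lists in the results was not tested.

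**Figure D2:**
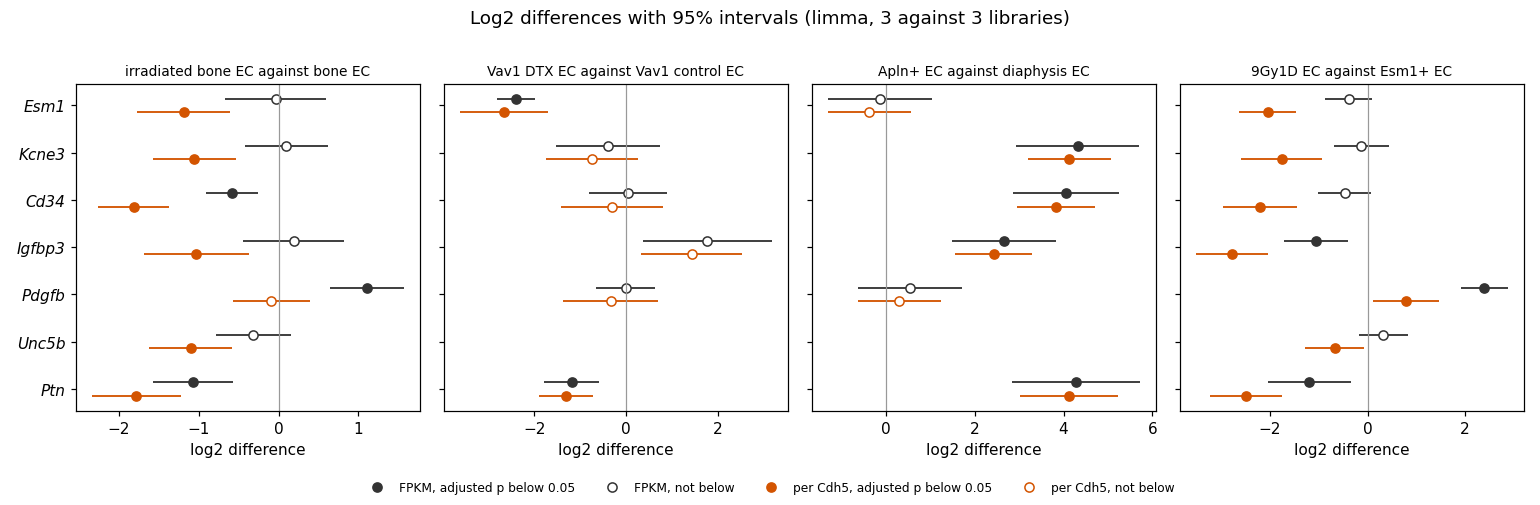
Each panel shows, for a comparison of 3 against 3 libraries, the log2 difference (horizontal axis) of each gene in FPKM (black) and per Cdh5 (orange) with its 95% interval; filled points have an adjusted p below 0.05, and genes without a point were not tested. In Apln+ EC against diaphysis EC both scales give nearly the same values (Kcne3 4.32 and 4.13), whereas in the irradiated comparisons the values per Cdh5 lie lower (Cd34 -0.58 and -1.82).

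Because Cdh5 differed between groups, each gene was also taken as a ratio to the Cdh5 of its own library. The error of Cdh5 is then shared by every gene, so these calls are not separate from each other. Diaphysis EC were sorted through the Cdh5 reporter and Apln+ EC through an Apln-driven label. Between these groups the denominator is thus tied to the sort in diaphysis EC only. How far the sort itself shifts these ratios was not tested. For Apln+ EC against diaphysis EC, 4 of 6 genes were again higher, against 1.25% of 11888 genes called higher, 1.75% lower and 3% either way; with Pdgfb, 5 of 6 did not overlap (13.8% of all genes). Cd34 per Cdh5 was 12.8, 12.3 and 13.7 in Apln+ EC and 1.03, 0.795 and 0.841 in diaphysis EC (log2 difference 3.83, SE 0.38, adjusted p = 0.00454). For Cd34, replicate 1 of Apln+ EC, low in FPKM, lay between the other 2 on this scale; it was the highest of the 3 for Igfbp3 and the lowest for Kcne3 and Ptn. Igfbp3 per Cdh5 was 4.89, 4.68 and 4.61 against 0.806, 0.864 and 0.885 (2.43, adjusted p = 0.0135), Kcne3 2.51, 3.56 and 2.80 against 0.168, 0.120 and 0.130 (4.13, adjusted p = 0.00446), and Ptn 0.943, 1.36 and 1.09 against 0.0646, 0.0419 and 0.0108 (4.12, adjusted p = 0.00672). Esm1 per Cdh5 overlapped, at 0.842, 1.004 and 0.722 against 1.37, 1.12 and 0.883 (-0.37, interval -1.31 to 0.57). All 4 calls were lost without diaphysis EC replicate 2, with adjusted p of 0.0544 to 0.134, and those of Igfbp3 and Ptn without replicate 3. Igfbp3 missed the threshold in 5 of 6 such fits. Ptn had passed the filter only with the help of Apln+ EC. Without Apln+ EC replicate 1 all 4 genes passed, but so did 7154 of the 11888 genes tested, in place of 357. The SEs of the 6 genes were all 0.254 to 0.315 in that fit. Its p-values may thus largely reflect the spread of all genes together, and passing there says little.

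For Vav1 DTX EC against control, Esm1 per Cdh5 was 0.101, 0.0312 and 0.0877 in DTX and 0.712, 0.516 and 0.641 in control. The fall of 2.66 on the log2 scale (SE 0.49, adjusted p = 1.84e-06) stood beside 9.07% of 11663 genes called lower, 0.995% higher and 10.1% either way. Ptn per Cdh5 fell too (0.00333, 0.000852 and 0.0377 against 0.109, 0.0538 and 0.0840; -1.32, adjusted p = 2.30e-04), though it had passed the filter only through control. In this fit limma took the spread almost wholly from all genes together, so its p-values do not measure the spread of a gene's own libraries. Igfbp3 per Cdh5 was 2.83, 4.89 and 2.21 against 1.28, 0.954 and 1.22, without overlap, as 5 of the 6 genes were (23.9% of all genes), but did not pass (1.43, adjusted p = 0.0957); without DTX replicate 2 it did (1.10, adjusted p = 0.0125).

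In irradiated bone EC 6 of 7 genes were lower per Cdh5 and did not overlap, against 68.4% of 13043 genes called lower, 2.47% higher, 70.9% either way and 77.1% without overlap, so the count is near its background. Pdgfb was the gene that did not pass, at 0.270, 0.186 and 0.215 per Cdh5 in irradiated and 0.228, 0.255 and 0.228 in untreated bone EC (-0.09, interval -0.58 to 0.39). Cd34 per Cdh5 was 0.381, 0.372 and 0.329 against 1.41, 1.29 and 1.177 (-1.82, adjusted p = 6.58e-05). Esm1 per Cdh5 was 0.0882, 0.0458 and 0.0531 against 0.130, 0.157 and 0.154 (-1.19, adjusted p = 0.00278). Ptn, also called lower per Cdh5 here, had passed the filter only through untreated bone EC.

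In 9Gy1D EC against Esm1+ EC, 6 of 7 genes were lower per Cdh5 and Pdgfb was higher, where 79.3% of 11745 genes were called lower, 3.35% higher and 82.7% either way and 84.6% did not overlap. The denominator is tied to the sort in 9Gy1D EC only, which carry the Cdh5 reporter, while Esm1+ EC carry an Esm1-driven label. How far the sort itself shifts these ratios was not tested. Esm1 per Cdh5 was 0.269, 0.243 and 0.218 in 9Gy1D EC and 1.07, 1.15 and 1.03 in Esm1+ EC, with no overlap (-2.05, SE 0.27, adjusted p = 5.11e-05). Pdgfb per Cdh5 was 0.615, 0.732 and 0.466 against 0.286, 0.284 and 0.459 (0.78, SE 0.31, adjusted p = 0.0323), a call that was lost with the near-identical replicates averaged (adjusted p = 0.139) and without 9Gy1D EC replicate 1 or 2 or Esm1+ EC replicate 1 or 2 (0.0509 to 0.149). The difference of Unc5b (-0.67, adjusted p = 0.0399) was lost by averaging too (0.116), and without 9Gy1D EC replicate 2 or 3 or Esm1+ EC replicate 1 or 2 (0.0983 to 0.16).

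**Figure D3:**
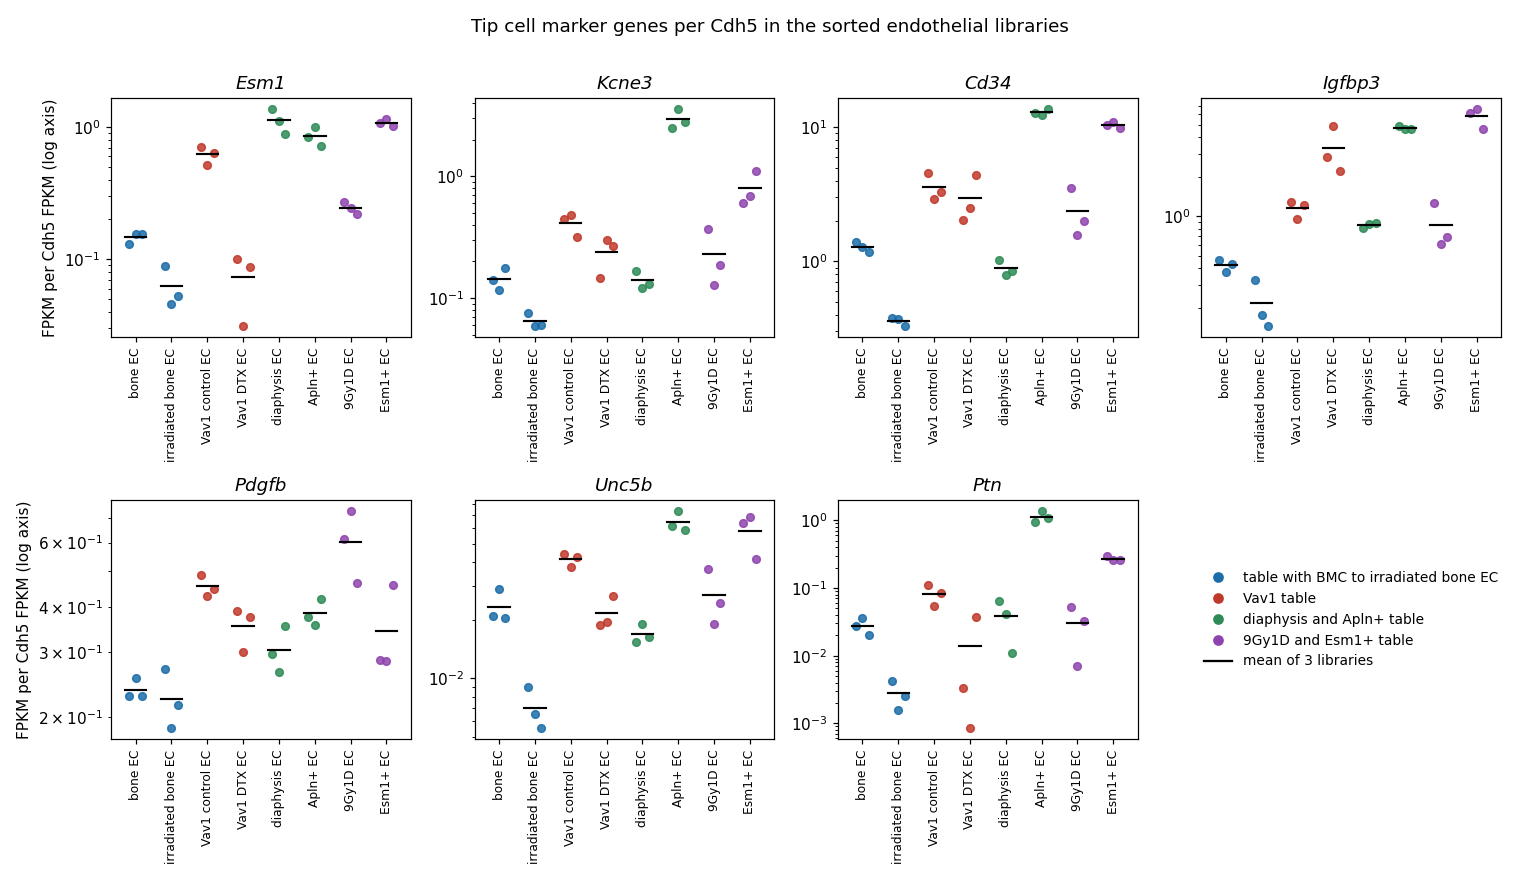
Points are the FPKM of a gene divided by the Cdh5 FPKM of the same library, on a log axis, in the 8 endothelial groups; bars are the mean of 3 libraries and colours the 4 tables. Esm1 per Cdh5 lies near 1 in diaphysis EC, Apln+ EC and Esm1+ EC (0.722 to 1.37) and far lower in irradiated bone EC and Vav1 DTX EC (0.0312 to 0.101). It is also low in untreated bone EC (0.130 to 0.157) and 9Gy1D EC (0.218 to 0.269).

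Set in order per Cdh5, as a description of the endothelial groups across tables, Esm1 was highest in diaphysis EC (1.12 ± 0.242) and Esm1+ EC (1.08 ± 0.0644), which overlapped. Apln+ EC (0.856 ± 0.141), Vav1 control EC (0.623 ± 0.0993), 9Gy1D EC (0.243 ± 0.0253) and bone EC (0.147 ± 0.0146) followed without overlap between neighbours. Cd34 and Kcne3 both had Apln+ EC first (12.9 ± 0.694 and 2.96 ± 0.540) and Esm1+ EC next (10.5 ± 0.533 and 0.795 ± 0.265), also without overlap of the pair. Apln+ EC and Esm1+ EC were sorted by labels other than the Cdh5 reporter, and the part of this in the order was not tested. The ratio has little meaning in LSK, where Cdh5 rested on 1 to 3 reads.

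Bone EC were also compared with the blood groups of their table. Against LSK, 6 of the 7 genes were higher in bone EC and Cd34 was lower, beside 29.5% of 14321 genes called higher, 30.6% lower, 60.1% either way and 66.5% without overlap. Esm1, Kcne3, Igfbp3 and Unc5b were below 1 FPKM in every LSK library. They passed the filter only through bone EC, so they could only be called higher. Pdgfb (0.299, 1.11 and 0.988 FPKM in LSK) and Ptn (1.08, 1.07 and 0.612) passed it only with the help of bone EC. Cd34 was 339, 351 and 358 FPKM in LSK (-1.74, SE 0.13, adjusted p = 1.76e-05), and 12 of 14 tested genes of the stem and progenitor list were lower in bone EC too. Igfbp3 was 0.140, 0.577 and 0.921 FPKM in LSK (4.53, adjusted p = 1.88e-06). Ptn, on 3 to 6 reads per LSK library, lost its call without LSK replicate 3 (adjusted p = 0.0548) or bone EC replicate 2 (0.061), without a filter (0.054) and in TPM (0.202).

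Against BMC all 7 genes were higher in bone EC, beside 35.8% of 13194 genes called higher, 34.6% lower, 70.4% either way and 74.7% without overlap. Esm1, Igfbp3, Unc5b and Ptn were below 1 FPKM in every BMC library. These genes passed the filter only through bone EC, so they could only be called higher. Kcne3 (1.073, 1.525 and 0.896 FPKM in BMC) and Pdgfb (1.106, 1.122 and 0.659) passed it only with the help of bone EC. Igfbp3 had the largest log2 difference of the 7 (5.06, SE 0.15, adjusted p = 1.62e-07), with 0 or 1 read per BMC library. Esm1 followed at 3.37 and Pdgfb at 3.36, and Cd34 differed by 2.23 (adjusted p = 3.13e-06). BMC and Lin- were made with a stranded total RNA kit and bone EC with SMART-Seq v4, so kit and cell type cannot be told apart in these 2 comparisons.

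The Lin- libraries carried some of these transcripts at endothelial levels. In them 17 of 18 pan-endothelial genes reached 1 FPKM in at least 2 libraries. That list summed to 71.6 to 146 FPKM in Lin-, 35.7 to 41.0 in BMC and 1976 to 2598 in bone EC. Erythroid genes summed to 2185 to 91190 FPKM in Lin- and 42830 to 46480 in bone EC (3 of 13 lower and 0 higher in bone EC). Esm1 was 11.7, 2.63 and 17.4 FPKM in Lin- and overlapped bone EC (0.44, interval -0.88 to 1.75), while Cdh5 in the same Lin- libraries was 10.7, 6.76 and 3.19. Esm1 and Cdh5 thus ran in opposite order between Lin- replicates 1 and 3. Unc5b was 3.43, 4.57 and 2.03 FPKM in Lin- and did not pass (-0.54, adjusted p = 0.106); without Lin- replicate 3 it was lower in bone EC (-0.78, adjusted p = 0.0182). The other 5 genes were higher in bone EC, beside 35.8% of 13255 genes called higher, 30.8% lower, 66.6% either way and 72% without overlap, with differences of 1.26 (Cd34) to 3.03 (Kcne3). Kcne3 and Ptn were below 1 FPKM in every Lin- library. Both passed the filter only through bone EC, so they could only be called higher. The Cd34 call was lost without bone EC replicate 2 or 3 (adjusted p = 0.0734 and 0.066). Mesenchymal stromal genes, 7 of 13 lower and 1 higher in bone EC, summed to 1123 to 3120 FPKM in Lin- and 292 to 512 in bone EC, and osteoblast and cartilage genes were lower in 9 of 11 cases. Megakaryocyte and platelet genes were lower in 9 of 9 (median -2.78, 758 to 1288 FPKM in Lin- and 114 to 170 in bone EC), and mural genes were lower in 4 of 7 and higher in 2. The part of all these lists in the Esm1 and Unc5b levels was not tested.

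Across the 24 endothelial libraries, with each table's mean removed from log2(FPKM + 1), Kcne3, Cd34, Ptn, Unc5b and Igfbp3 varied together and Esm1 and Pdgfb apart from them. Pearson's r was 0.96 for Kcne3 with Cd34, 0.91 for Cd34 with Ptn and 0.84 for Unc5b with both Kcne3 and Cd34. Esm1 reached at most 0.35, with Unc5b, and Pdgfb at most 0.43, also with Unc5b. These values are a description over libraries that share tables and depth, and they rest largely on the diaphysis and Apln+ libraries. Over the other 18 libraries, an alternative chosen after seeing the data, r was 0.57 for Kcne3 with Cd34, 0.56 for Cd34 with Ptn, 0.18 for Kcne3 with Ptn and 0.61 for Esm1 with Ptn. For Igfbp3 it was 0.5 with Cd34 (0.79 over all 24), 0.31 with Kcne3 (0.75), 0.05 with Unc5b (0.62) and -0.15 with Ptn (0.58). Unc5b reached 0.4 with Kcne3 and 0.53 with Cd34, and Pdgfb with Ptn was at -0.69 (-0.06 over all 24).

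**Figure D4:**
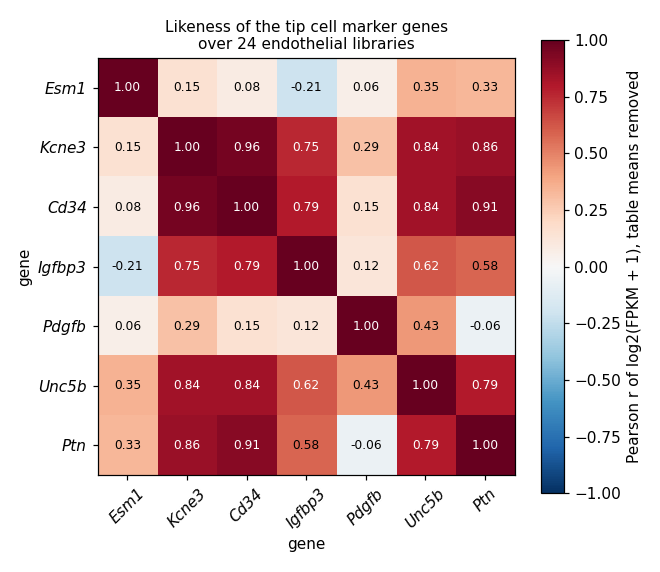
The grid gives Pearson's r between each pair of genes over 24 endothelial libraries, from log2(FPKM + 1) with each table's mean removed; both axes list the genes and the colour scale runs from -1 to 1. Kcne3 and Cd34 are the most alike pair (0.96), and the rows of Esm1 and Pdgfb stay at or below 0.43.

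Among 8832 genes with a mean of at least 5 FPKM in an endothelial group, those most like each gene over the same 24 libraries were named. The search was not repeated over the 18 libraries without diaphysis and Apln+ EC, where Kcne3 with Cd34 fell to 0.57. How far these values rest on the diaphysis and Apln+ libraries was therefore not tested. Kcne3 was closest to Ramp3 (r = 0.969), Cd34 (0.957) and Pcdh17 (0.953). Cd34 was closest to Plat, tissue plasminogen activator (0.973), Ramp3 (0.972) and Ednrb (0.966), and Ptn to Fam101a (0.953), Wisp1 (0.95) and Nid2 (0.948). Igfbp3 was closest to placental growth factor, Pgf (0.937), Prnp (0.914) and C1qtnf6 (0.913), and Unc5b to Nes (0.929), Prcp (0.912) and Endou (0.907). The nearest genes to Pdgfb were Slc35g2 (0.961), Tm2d2 (0.957) and Ripply3 (0.952). For Esm1 they were less close: Gpx8 (0.864), Rara (0.846) and Cpq (0.813).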

How the data were processed

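RNA was sequenced from 33 libraries of mouse bone marrow cells, 3 per group. Expression was deposited by the authors as FPKM. Tools in the submitters' processing notes, given there in no stated role, are DESeq2 1.18.1, HTSeq 0.6.1, bcl2fastq 2.19.1.403 and TopHat2 2.1.1; mm10 is the build. The 4 tables hold 0 columns without a sample. 25 gene names that had been turned into dates were left out, which leaves 38899 genes.

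The genes and gene lists were chosen with earlier results of these data known. Besides the 7 genes and Cdh5, up to 4 called genes per list and comparison were named, by largest absolute log2 difference, from the tip, stalk, partner and family lists, and for each gene the 3 most alike by Pearson's r. One partner gene that this rule selects is not reported here.

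Values were used as log2(FPKM + 1), keeping genes that reached 1 FPKM in 3 or more of the 6 compared libraries. R 4.3.3 ran limma 3.58.1, with eBayes and its trend option. Tests are two-sided and adjusted over all genes tested (Benjamini-Hochberg, threshold 0.05). An FPKM difference on this scale understates the change of low genes. Ratios used the Cdh5 of each library, rescaled to the mean of the 6. Reads were recovered from the FPKM steps (100% of genes whole within 0.005). The fits were tested on simulated data. Promoters came from RefSeq, with entries for 6 of the 7 genes (none used for Pdgfb). Figures were drawn with matplotlib 3.10.9.

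Alternatives were other pseudocounts, filters and scalings, a replicate block, voom on recovered reads and leaving out each library.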

Additional observations from a re-analysis of the deposited data

How the results depend on the processing

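Of 1017 values of single genes under an alternative, 915 kept their direction and their side of the threshold, 58 lost a call, 17 gained one and 27 changed sign. Of 155 counts of called genes, 137 stayed within 1.5 times. With each library scaled to its mean pan-endothelial level, the counts became 6 (from 3) after irradiation and 6 (from 3) in 9Gy1D EC, and signs changed for Kcne3 (-1.38), Igfbp3 (-1.37) and Pdgfb (-0.43) after irradiation and Unc5b (-0.56) in 9Gy1D EC. Cd34 in DTX became -0.18. This scaling moved the median of all genes by -1.34, -0.17, -0.23 and -1.35 (irradiated, DTX, Apln+, 9Gy1D), TPM by 0.24, 0.23, -0.14 and 0.23, and TPM in bone EC by -0.66 (LSK), 0.18 (Lin-) and 0.38 (BMC). The share of calls that were higher went from 53.8% to 2.0% and 68.0% (pan-endothelial scaling and TPM, irradiated), from 43.0% to 11.8% and 68.7% (DTX), from 38.0% to 38.8% and 27.7% (Apln+), from 47.2% to 4.6% and 64.0% (9Gy1D) and, in TPM, from 49.0% to 22.8% (LSK) and 50.8% to 68.1% (BMC). TPM also changed the sign of Esm1 after irradiation (0.21), Pdgfb in DTX (0.23) and Kcne3 in 9Gy1D EC (0.11), and a pseudocount of 5 that of Pdgfb in DTX (0.001). A mean of at least 5 FPKM left 1 gene called in DTX and 1 per Cdh5, since Ptn was then not tested; no filter left 1 per Cdh5 in DTX. Averaging Esm1+ EC replicates 1 and 2 left 1 gene called. The cause of the other changes was not tested.

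Leaving out each library gave 1 to 4 genes called in DTX, 1 to 5 in Apln+ EC, 1 to 5 in 9Gy1D EC, 2 to 4 per Cdh5 in DTX and 0 to 4 per Cdh5 in Apln+ EC. The sign changed for Esm1 (-0.266 to 0.13), Kcne3 (-0.064 to 0.341), Igfbp3 (-0.102 to 0.391) and, per Cdh5, Pdgfb (-0.232 to 0.026) after irradiation. It also changed for Kcne3 (-0.967 to 0.051), Cd34 (-0.316 to 0.465) and Pdgfb (-0.311 to 0.169) in DTX, Esm1 in Apln+ EC (-0.579 to 0.441), Kcne3 in 9Gy1D EC (-0.323 to 0.131) and Esm1 against Lin- (-0.252 to 0.917). Of all genes in Apln+ EC, 890 were called, against 293 to 584 without each of the other 5 libraries of that table and 3989 without Apln+ EC replicate 1, 445 with a mean of at least 5 FPKM and 255 with pan-endothelial scaling; in DTX 3065 were called, against 1657 to 1710 without a control library, 4782 without DTX replicate 2 and 1210 with pan-endothelial scaling, which raised the calls from 5463 to 10768 after irradiation and from 5133 to 8753 in 9Gy1D EC. A mean of at least 5 FPKM, which tests fewer genes, lowered the calls against LSK, Lin- and BMC from 8608, 8822 and 9287 to 5083, 5624 and 6069. Per Cdh5 it lowered them from 9249 to 6111 (irradiated), 1174 to 540 (DTX), 357 to 176 (Apln+) and 9710 to 6441 (9Gy1D); no filter gave 780 in DTX. Per Cdh5, 1993 genes were called without DTX replicate 2, 7154 without Apln+ EC replicate 1 and 18 to 182 without each of the other 5.

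Replicate numbers gave no clear sign of pairing, though so few libraries cannot exclude it. Same-numbered deviations correlated at -0.219 to 0.332, and in no comparison did every pair exceed 0.1 or every sample correlate best with its own number. In Apln+ EC against diaphysis EC, replicates 1 and 3 did correlate best with their own number (0.332 and 0.297). With the replicate block, 3, 2, 4 and 3 genes were called (irradiated, DTX, Apln+, 9Gy1D), as without it, and 5 in place of 7 per Cdh5 in 9Gy1D EC; over all genes the calls per Cdh5 in Apln+ EC went from 357 to 743. Depth limits Ptn, with 1 to 17 reads in DTX and 2 to 6 in irradiated libraries.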
